A study of Mus musculus with 6 samples.

Results

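The serpins are a superfamily of protease inhibitors that share 1 protein fold. All genes whose symbol starts with Serpin were taken from the arrays, which gave 48 of the 19938 genes that had a probe set of their own. The members were taken by symbol, with earlier results of these data known. Each was measured by 1 probe set. They fall into clades A to I, with 15 members in clade A, 24 in clade B and 9 in the remaining clades. Total RNA from NME and AGR cells was hybridized to 6 arrays, with 3 per line. The parental NME cells are NMuMG cells, an epithelial line of the mouse mammary gland, transformed by overexpression of EGFR, and they are sensitive to the EGFR inhibitor AG1478. AGR cells are the resistant derivative, a single colony isolated from 3D culture of NME cells in the presence of 1 µM AG1478 and expanded in 2D culture. They therefore carry the same EGFR transgene, and as AGR came from 1 colony, resistance and other properties of that colony cannot be told apart. According to the paper, resistant lines were kept without drug after they had been established. The comparison asks which genes differ between resistant and sensitive cells.

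An inhibitory serpin offers a flexible reactive centre loop as bait. When a protease cuts the loop, the serpin snaps into a new shape, stays covalently bound to the enzyme and is consumed with it, and the complex is cleared by receptors of the LDL receptor family. Clade A holds extracellular serpins, many of them secreted into plasma by the liver, such as α1-antitrypsin. Clade B serpins lack a classical signal peptide and act mostly inside cells, where they protect against the cell's own granule and lysosomal proteases. Several members, among them maspin, thyroxine-binding globulin, PEDF and the collagen chaperone Hsp47, inhibit no protease.

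The values are the deposited array intensities on a log2 scale, and log2 fold changes (FC) are AGR minus NME. Intensities had a median of 190.4 to 201 on the 6 arrays. Across all probe sets, arrays of the same cell line correlated with r of 0.995 to 0.997. Arrays of different lines correlated with r of 0.986 to 0.988, probe sets not being independent replicates. No detection calls come with the values, so a mean below the median of all probe sets (7.61 on the log2 scale) is called dim here. A dim signal could not be separated from background, and 36 of the 48 serpins were dim in both cell lines. The epithelial markers Krt8 (mean 14.23 in NME and 14.13 in AGR), Krt18 (13.63 and 13.58) and Cdh1 (13.54 and 12.93, a decrease with adjusted p = 4.67e-04 from limma) were bright in both lines. Krt19 was also bright and fell from 13.44 to 12.40, or 2.06-fold (adjusted p = 1.40e-05 from limma), while Epcam was dim in both (6.58 and 6.51).

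In AGR cells the α1-antitrypsin genes Serpina1c and Serpina1d fell, as did Serpina7, Serpinf2 and Serpinb5. The granzyme inhibitor family members Serpinb9, Serpinb9b, Serpinb9c and Serpinb9e rose, together with Serpinb2 and Serpinb6a. By limma at an adjusted p under 0.05, 6 serpins (12.5%) were higher in AGR cells against 12.6% of all genes, and 5 (10.4%) were lower against 11.6% of all genes. Together, 11 of the 48 passed, against 24.2% of all genes, so the share of serpins called lay near that of the arrays as a whole. The sets differ in brightness, as 36 of the 48 serpins and 8034 of the 19938 genes were dim in both lines. With a FC above 2 in addition, 4 serpins (8.33%) were higher against 1.5% of all genes, and 2 (4.17%) were lower against 1.5%. The values of the cell lines did not overlap for 13 serpins, where 36.4% of all genes did not overlap. The median log2 FC was -0.01 for the serpins and -0.02 for all genes, and the median size of the log2 FC was 0.08 and 0.09. Clade A had 0 members higher and 3 lower, clade B had 6 higher and 1 lower, and of the other clades only clade F had a member that passed, which was lower.

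**Figure D1:**
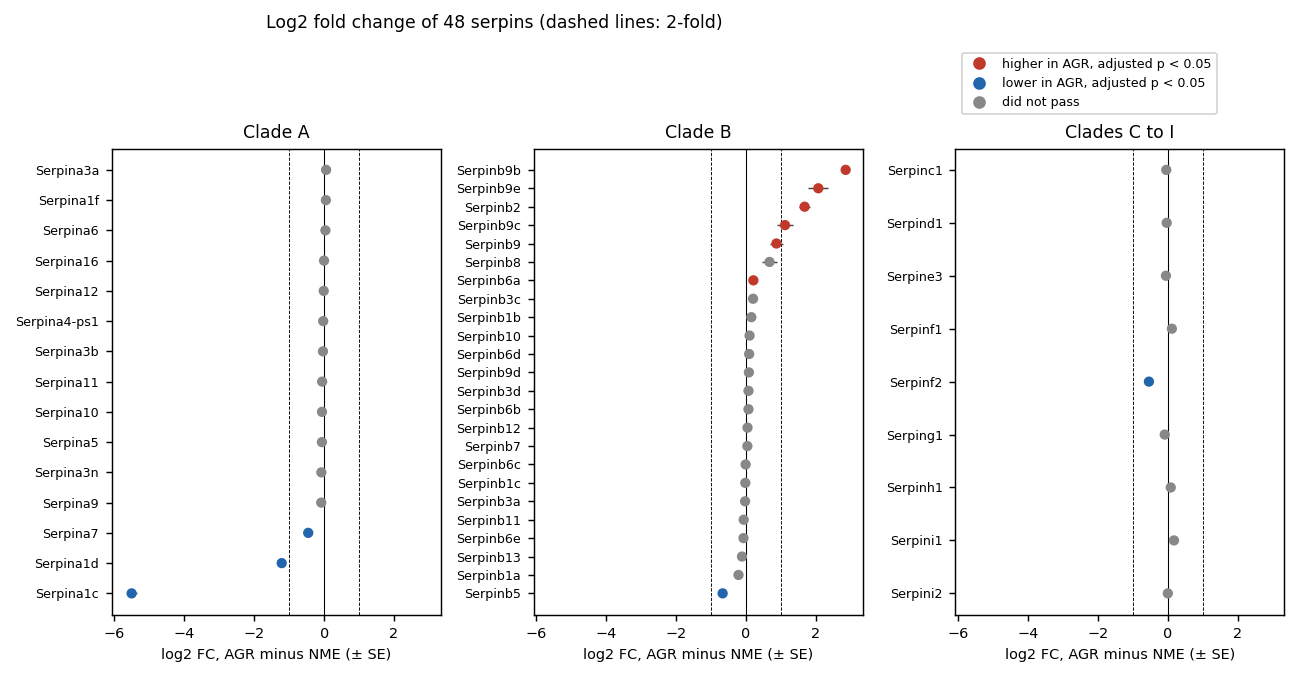
Log2 FC (AGR minus NME) of each of the 48 serpins in clades A, B and C to I, with points for the limma estimates, bars for the standard error and dashed lines at a FC of 2. Serpina1c stands at -5.50 and Serpinb9b at 2.85, while most points lie near 0.

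The Serpina1 genes are the mouse copies of α1-antitrypsin, the liver's inhibitor of neutrophil elastase. They lie side by side on chromosome 12, and their promoters are shown because these copies had the largest decrease of the serpins. In the 250 bases before the RefSeq start site (GRCm38.p6, minus strand for all 5), the aligned windows were 92.1% to 98.0% identical in pairs. A run of 55 bases, in capitals, was shared by all 5 and was found in 5 of 32851 promoter windows (0.0152%), those of these genes.
Serpina1a, chr12:103863620-103863709: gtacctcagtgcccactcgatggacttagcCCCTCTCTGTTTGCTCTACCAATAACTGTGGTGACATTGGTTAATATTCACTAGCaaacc
Serpina1b, chr12:103738190-103738284: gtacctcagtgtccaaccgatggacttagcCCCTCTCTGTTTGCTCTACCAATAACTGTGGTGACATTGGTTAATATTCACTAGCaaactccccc
Serpina1c, chr12:103904951-103905046: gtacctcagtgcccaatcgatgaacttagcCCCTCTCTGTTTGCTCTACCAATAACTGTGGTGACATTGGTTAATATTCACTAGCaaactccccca
Serpina1d, chr12:103773634-103773718: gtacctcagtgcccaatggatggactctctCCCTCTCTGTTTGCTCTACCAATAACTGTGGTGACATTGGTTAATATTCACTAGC
Serpina1e, chr12:103956930-103957044: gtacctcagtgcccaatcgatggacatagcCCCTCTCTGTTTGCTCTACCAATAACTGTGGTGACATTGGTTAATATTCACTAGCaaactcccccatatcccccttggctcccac

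The shared run holds the letters GTTAAT, a half-site of the liver factor HNF1. On both strands, GTTAAT was found in 2113 of the 32851 windows (6.43%) and in 12 of 63 serpin windows (19.0%), which belong to 11 genes, Serpina1a to Serpina1e, Serpina3c, Serpina7, Serpinb3b, Serpinb3d, Serpinb8 and Serpini2. The full HNF1 palindrome was found in 3 windows (0.00913%) and in 0 of the serpin windows. GTTAAT was chosen after the promoters were seen, and the matches in Serpina1a to Serpina1e follow from their shared run. Those near-identical copies are not independent, so the serpin share does not measure an excess. A match is a description of the letters and not of binding.

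Serpina1c showed the largest change of the 48 serpins. Its log2 intensities were 10.71, 10.45 and 10.70 in NME replicates 1 to 3 and 5.22, 5.31 and 4.82 in AGR replicates 1 to 3. All 3 NME arrays were far above all 3 AGR arrays, which were dim. The mean fell from 10.62 ± 0.15 to 5.12 ± 0.26 (SD, n = 3 each), a log2 FC of -5.50 (SE 0.14), which is 45.3-fold on the intensity scale (adjusted p = 1.95e-06 from limma). Because the AGR signal could not be separated from background, the size of this FC is uncertain. In RNA from whole cultures, fewer expressing cells and less RNA per cell cannot be told apart.

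Serpina1d fell by less on its own probe set. It measured 7.79, 7.53 and 7.69 in NME replicates and 6.66, 6.34 and 6.37 in AGR replicates, again without overlap. The decrease was 2.32-fold (log2 FC -1.21, SE 0.10, adjusted p = 3.23e-04 from limma), from a mean just above the median of all probe sets to a dim one, and background in a dim signal can lower the FC. Serpina1f did not pass (mean 6.36 in NME and 6.41 in AGR, adjusted p = 0.637 from limma).

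Serpina1a, Serpina1b and Serpina1e had no probe set of their own, but 2 probe sets carry the symbols of Serpina1a to Serpina1e together. The first measured 11.81, 11.67 and 11.73 in NME replicates and 7.10, 7.02 and 6.87 in AGR replicates. The second measured 13.16, 13.04 and 13.12 in NME replicates and 8.48, 8.39 and 8.26 in AGR replicates. Both fell without overlap, with log2 FC of -4.74 and -4.73 (SE 0.07 each), or 26.7-fold and 26.5-fold, with adjusted p = 7.87e-06 and 7.10e-06 from limma over all 35557 probe sets, of which 7.67% were lower in AGR cells. These sets show that α1-antitrypsin signal fell as a group and cannot assign it to a copy, and cross-hybridization between the near-identical copies was not tested.

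Several liver genes were also lower in AGR cells. Of 12 measured hepatocyte markers, 7 were lower in AGR cells (11.6% of all genes were), 6 of them with a FC above 2 (1.5% of all genes), and 1, Apob, was higher by 0.84. Albumin (Alb) fell from a mean of 13.06 to 6.71, transthyretin (Ttr) from 12.56 to 7.44 and Apoa1 from 9.42 to 7.88. Afp fell from 9.32 to 8.29, and the liver transcription factor gene Hnf4a fell from 13.17 to 11.96 and remained bright. The summed intensity of the 12 genes was 28623 to 31189 on the NME arrays and 10680 to 10944 on the AGR arrays. Their part in the Serpina1 result was not tested.

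Outside the Serpina1 group, Serpina7 was the only clade A member that passed. It encodes thyroxine-binding globulin, a hormone carrier. It measured 6.38, 6.38 and 6.46 in NME replicates and 5.85, 5.98 and 6.03 in AGR replicates, so the groups did not overlap, but both lines were dim. The decrease was small, 1.37-fold, with log2 FC -0.46 and SE 0.06 (limma, adjusted p = 0.0020). The other 12 members of clade A did not pass, had log2 FC between -0.08 and 0.06 and were dim in both lines. They include Serpina3a, Serpina3b and Serpina3n of the antichymotrypsin group, the protein C inhibitor gene Serpina5, the corticosteroid carrier gene Serpina6, the vaspin gene Serpina12, and Serpina4-ps1, Serpina9, Serpina10, Serpina11, Serpina16 and Serpina1f. In the Serpina cluster of chromosome 12, which holds 23 serpin genes in a row, 13 were measured and Serpina1d and Serpina1c were those that passed. Both were lower, as were 11.6% of all genes. The nearest measured genes on either side, Serpina1f beyond Serpina1b and Serpina11 beyond Serpina1e, did not pass.

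**Figure D2:**
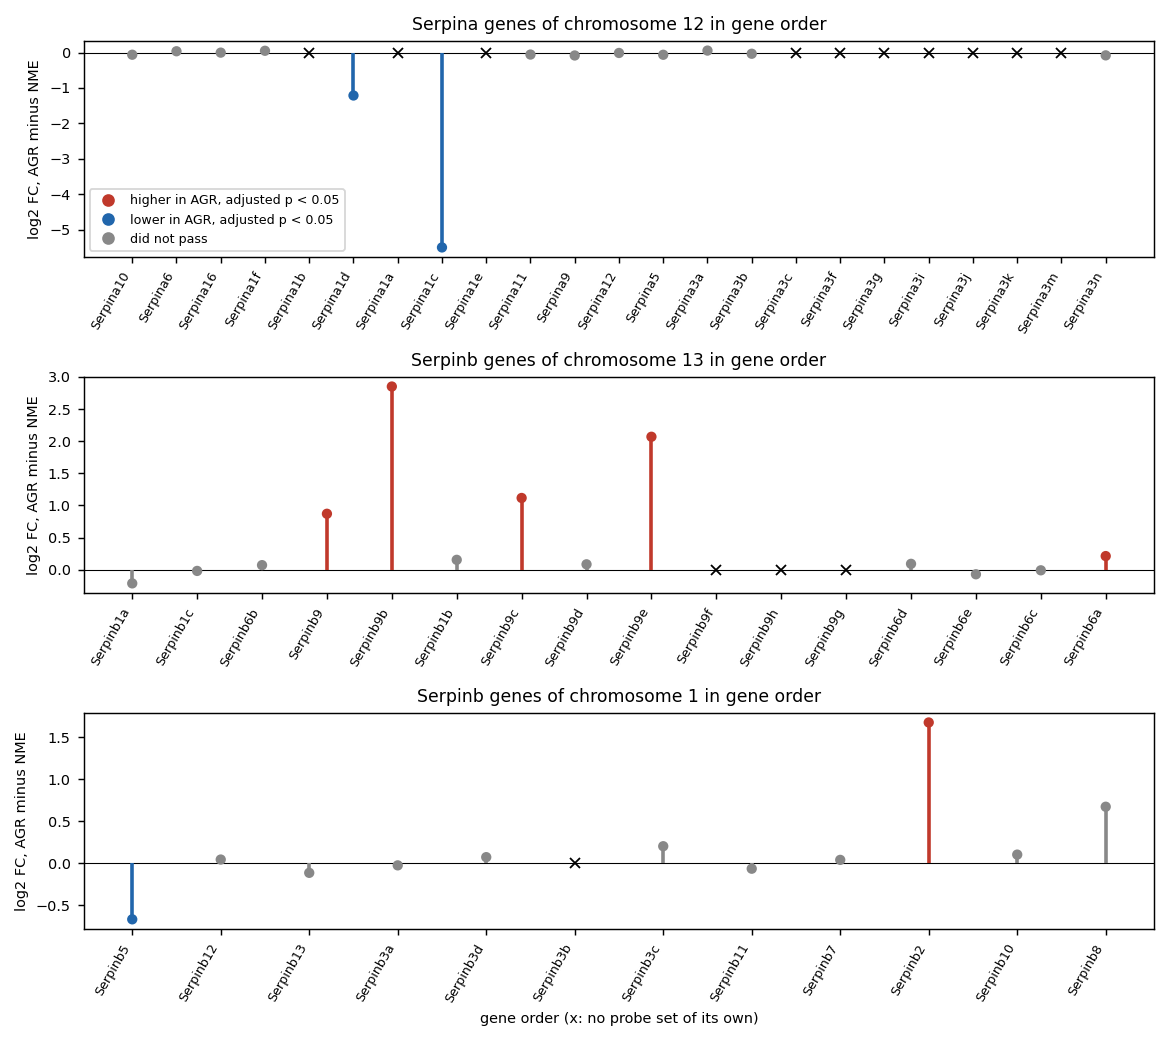
Log2 FC (AGR minus NME) of the serpin genes of chromosomes 12, 13 and 1 in gene order, with equal spacing, stems from 0 and a cross for a gene without a probe set of its own. The genes that passed are Serpina1d and Serpina1c, Serpinb9 genes between which neighbours near 0 lie, and Serpinb6a at the end of its cluster. On chromosome 1 they are Serpinb5 and Serpinb2, near opposite ends of the cluster, while Serpinb8 at 0.67 did not pass.

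Serpinb9 encodes the intracellular inhibitor of granzyme B, the killing protease of cytotoxic lymphocytes, and the mouse carries several copies of it on chromosome 13. Of the 5 Serpinb9 genes with a probe set of their own, 4 rose and 3 of these passed a FC of 2, with a median log2 FC of 1.12 over the 5. Of all genes, 12.6% were higher and 1.5% were higher with a FC above 2. The promoters of the 4 that rose are shown as pairs, with the longest run shared within each pair in capitals (GRCm38.p6, plus strand except Serpinb9c on minus).
Serpinb9, chr13:33004431-33004540: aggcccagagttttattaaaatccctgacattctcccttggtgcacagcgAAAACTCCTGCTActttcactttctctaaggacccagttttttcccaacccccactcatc
Serpinb9b, chr13:33027300-33027412: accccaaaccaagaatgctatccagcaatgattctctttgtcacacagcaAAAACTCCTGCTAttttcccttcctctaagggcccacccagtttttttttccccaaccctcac
Serpinb9c, chr13:33159861-33159972: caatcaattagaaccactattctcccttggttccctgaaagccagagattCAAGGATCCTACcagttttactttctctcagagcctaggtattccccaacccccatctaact
Serpinb9e, chr13:33249376-33249487: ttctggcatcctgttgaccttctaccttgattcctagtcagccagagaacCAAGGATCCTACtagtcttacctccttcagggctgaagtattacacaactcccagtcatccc

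The run of Serpinb9 and Serpinb9b is 13 bases long and that of Serpinb9c and Serpinb9e 12 bases. Each was found in 3 of the 32851 windows (0.00913%), the pair included. The pairing is not exclusive, since Serpinb9 and Serpinb9c share another run of 13 bases.

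Serpinb9b had the largest increase of the serpins. Its log2 intensities were 9.64, 9.51 and 9.67 in NME replicates and 12.45, 12.43 and 12.49 in AGR replicates. The arrays of each line lay close together and the lines were far apart, and neither line was dim. The mean rose from 9.61 ± 0.09 to 12.46 ± 0.03 (SD, n = 3 each), a log2 FC of 2.85 (SE 0.06), or 7.21-fold (adjusted p = 1.47e-06 from limma).

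Serpinb9e measured 5.77, 5.73 and 5.94 in NME replicates and 7.22, 8.44 and 7.99 in AGR replicates. It was dim in all NME arrays, and all AGR arrays were above them, with a spread (SD 0.62) wider than that of the NME arrays (SD 0.11). AGR replicate 1 also lay under the median of all probe sets, so the size of the FC is uncertain. The increase was 4.20-fold (log2 FC 2.07, SE 0.28, adjusted p = 0.0022 from limma).

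Serpinb9c measured 5.63, 5.78 and 5.64 in NME replicates and 6.37, 7.37 and 6.66 in AGR replicates, so it rose without overlap while its mean was dim in both lines. The log2 FC was 1.12 (SE 0.24), or 2.17-fold (adjusted p = 0.0140 from limma). Without AGR replicate 2, its highest array, the log2 FC was 0.83, below a FC of 2. Without NME replicate 1, 2 or 3 or AGR replicate 3, the adjusted p was 0.0651, 0.0521, 0.061 and 0.0507, so the call rested on the set of arrays.

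Serpinb9 itself was above the median of all probe sets in both lines. Its log2 intensities were 9.67, 9.48 and 9.43 in NME replicates and 10.07, 10.80 and 10.32 in AGR replicates, without overlap. The log2 FC was 0.87 (SE 0.18), or 1.83-fold (adjusted p = 0.0125 from limma). The adjusted p was 0.0593, 0.059 and 0.0509 without NME replicate 2, NME replicate 3 and AGR replicate 3. Serpinb9d, which lies between Serpinb9c and Serpinb9e, did not pass (mean 4.36 in NME and 4.44 in AGR, adjusted p = 0.540 from limma).

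There were 3 probe sets with the joint symbols of Serpinb9d, Serpinb9e, Serpinb9f and Serpinb9g, and these rose as Serpinb9e did. The first measured 6.11, 6.18 and 6.13 in NME replicates and 7.02, 7.91 and 7.34 in AGR replicates. Over the 3 sets the log2 FC was 1.28, 1.30 and 1.48, or 2.44-fold, 2.47-fold and 2.79-fold, with adjusted p = 0.0119, 0.0091 and 0.0075 from limma over all probe sets, of which 7.94% were higher in AGR cells. In each of them AGR replicate 2 was the highest array, as it was for Serpinb9, Serpinb9c, Serpinb9e and Serpinb2, which are 4 of the 6 serpins that rose. On their own probe sets Serpinb9e passed and Serpinb9d did not, and which copy gave the shared signal was not tested.

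**Figure D3:**
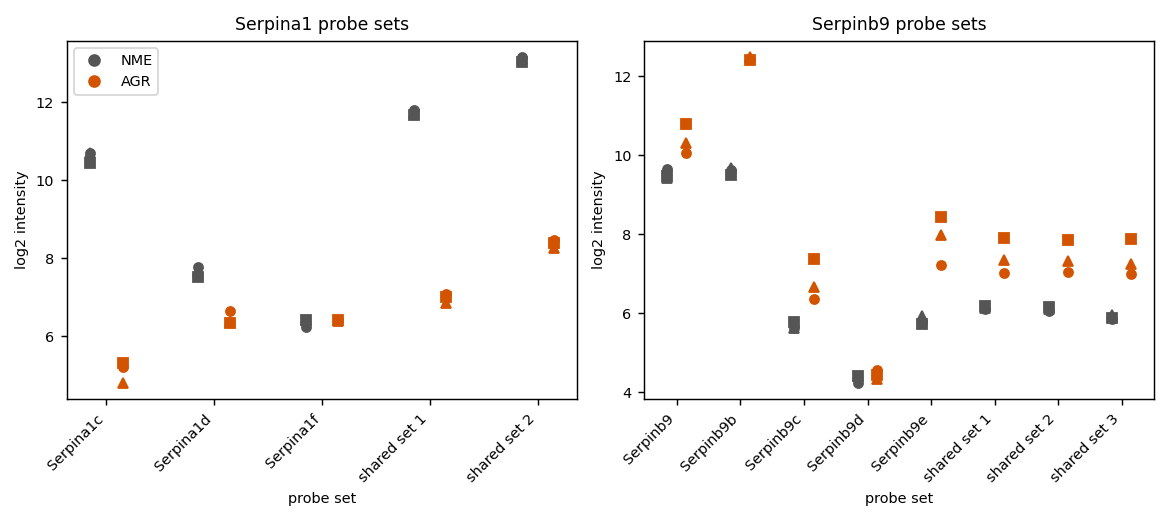
Log2 intensity of the Serpina1 and Serpinb9 probe sets on each array, in grey for NME and orange for AGR, with a circle, square and triangle for replicates 1, 2 and 3. The shared sets 1 and 2 on the left carry Serpina1a to Serpina1e and fall as Serpina1c does, and shared sets 1 to 3 on the right carry Serpinb9d to Serpinb9g and rise.

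The target of Serpinb9, granzyme B (Gzmb), was dim with a mean of 6.18 in both lines and did not pass (adjusted p = 0.980 from limma). Of 7 measured immune cell markers, 2 were higher in AGR cells (12.6% of all genes were), Cd68 by 0.96 and Csf1r by 0.28 on the log2 scale. The pan-leukocyte gene Ptprc was dim in both lines (7.08 and 7.14). The summed intensity of the 7 genes was 1029 to 1078 on NME arrays and 1292 to 1341 on AGR arrays, and their part in the Serpinb9 result was not tested.

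Serpinb6a, an intracellular inhibitor of trypsin-like proteases and cathepsin G, was bright in both lines and rose slightly. It measured 12.17, 12.17 and 12.13 in NME replicates and 12.35, 12.37 and 12.37 in AGR replicates, which did not overlap. The log2 FC was 0.21 (SE 0.04), or 1.16-fold (adjusted p = 0.0080 from limma). Serpinb6b was also bright and did not pass (11.83 and 11.91, adjusted p = 0.550 from limma), and Serpinb6c, Serpinb6d and Serpinb6e were dim and did not pass. In the chromosome 13 cluster of 16 serpin genes, 13 were measured, 5 were higher and 0 were lower. Among all genes, 12.6% were higher and 11.6% lower, and 4 of the 5 are the Serpinb9 genes already counted. The members that rose did not form a block, because Serpinb1b lies between Serpinb9b and Serpinb9c and did not pass, and Serpinb6a stands at the end of the cluster.

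On chromosome 1 a second Serpinb cluster of 12 genes had 11 measured members, with 1 higher and 1 lower. Among all genes, 12.6% were higher and 11.6% lower. The member that rose was Serpinb2, or PAI-2, an inhibitor of the urokinase-type plasminogen activator. Its log2 intensities were 5.93, 6.24 and 6.12 in NME replicates and 7.57, 8.14 and 7.61 in AGR replicates, with no overlap between the lines. The NME mean was dim, and AGR replicates 1 and 3 (7.571 and 7.605) also lay under the median of all probe sets (7.609). Serpinb2 rose 3.20-fold (log2 FC 1.68, SE 0.16, adjusted p = 5.33e-04 from limma), and with signals this low the size of the FC is uncertain. The promoter of Serpinb2 (GRCm38.p6, chr1:107511173-107511422, plus strand) is shown with the letters TGANTCA, a form of the AP-1 site, in capitals.
Serpinb2: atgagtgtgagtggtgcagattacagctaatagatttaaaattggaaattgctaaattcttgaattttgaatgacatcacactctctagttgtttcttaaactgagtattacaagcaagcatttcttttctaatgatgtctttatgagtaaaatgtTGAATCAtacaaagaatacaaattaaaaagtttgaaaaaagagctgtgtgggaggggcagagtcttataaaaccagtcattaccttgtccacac

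On both strands, TGANTCA was found in 2217 of all windows (6.75%) and in 12 of 63 serpin windows (19.0%). These belong to Serpina1a to Serpina1d, Serpinb2, Serpinb5, Serpinb7, Serpinb8, Serpinb10, Serpinb11 and Serpinb12, a group with members that rose, fell and did not pass. The Serpina1 windows among them are near-identical copies, and the letters were chosen after the promoters were seen.

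Serpinb5, or maspin, was the clade B member that fell. Maspin is a mammary epithelial serpin that inhibits no protease. NME replicates 1 to 3 measured 7.49, 7.33 and 7.50 and AGR replicates 6.91, 6.53 and 6.88, so all NME arrays were higher, although both means were dim. Serpinb5 fell 1.59-fold (log2 FC -0.67, SE 0.11, adjusted p = 0.0047 from limma).

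Serpinb8, an inhibitor of furin, did not overlap between the lines but missed the threshold. Its log2 intensities were 7.70, 7.41 and 7.61 in NME replicates and 8.42, 7.76 and 8.55 in AGR replicates. AGR replicate 2 was the lowest AGR array here, whereas it was the highest for Serpinb9, Serpinb9c and Serpinb9e. The log2 FC was 0.67 (SE 0.20, adjusted p = 0.0549 from limma), and without AGR replicate 2 it was 0.92 with adjusted p = 0.00154. Its target gene Furin was higher by 0.16 (adjusted p = 0.0289 from limma). Of the 17 clade B members that did not pass, with log2 FC between -0.21 and 0.67, 15 were dim in both lines. They include the Serpinb1 genes, which encode neutrophil protease inhibitors, and the Serpinb3 genes, with 3 measured members each and 0 that passed. Serpinb13, chosen after its values were seen, was the other member without overlap that did not pass (mean 5.47 in NME and 5.36 in AGR, adjusted p = 0.151 from limma).

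**Figure D4:**
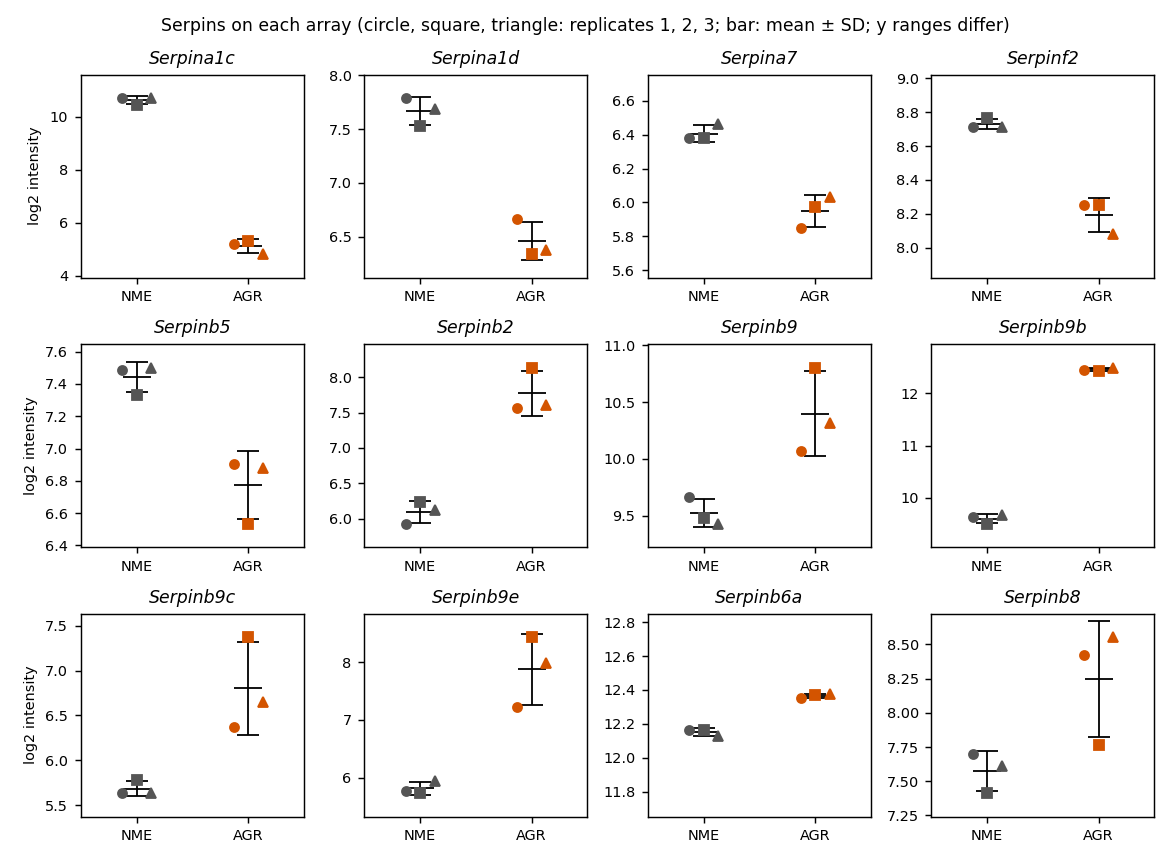
Log2 intensity on each array of the 11 serpins that passed and of Serpinb8, with a circle, square and triangle for replicates 1, 2 and 3, the mean as a bar and the SD as whiskers (n = 3 each). The scale differs between panels, and in each panel the arrays of the cell lines do not overlap.

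Clades C to I hold single genes or pairs, and 1 of these 9 members passed, against 24.2% of all genes. Serpinf2, or α2-antiplasmin, the main inhibitor of plasmin, measured 8.72, 8.77 and 8.72 in NME replicates and 8.26, 8.25 and 8.08 in AGR replicates. All AGR arrays were lower, and both lines were above the median of all probe sets. The log2 FC was -0.54 (SE 0.06), or 1.45-fold (adjusted p = 9.43e-04 from limma). Its clade partner Serpinf1, or PEDF, an antiangiogenic serpin, did not pass (7.49 and 7.60, adjusted p = 0.498 from limma).

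Serpinh1, or Hsp47, which helps collagen fold in the endoplasmic reticulum, was above the median in both lines and did not pass (9.92 and 10.00, log2 FC 0.09, adjusted p = 0.356 from limma). Serpine3 did not pass (7.66 and 7.61, adjusted p = 0.726 from limma). The plasma inhibitors were dim and did not pass, namely antithrombin (Serpinc1, 7.03 and 6.99, adjusted p = 0.734), heparin cofactor II (Serpind1, log2 FC -0.03, adjusted p = 0.804) and C1 inhibitor (Serping1, 6.59 and 6.51, adjusted p = 0.577). Neuroserpin (Serpini1) had a log2 FC of 0.18 (adjusted p = 0.242) and Serpini2 of 0.00, and both were dim. Serpine2, which encodes protease nexin-1, was not analysed here.

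Proteases that serpins inhibit or that act beside them were read from the same fit, with 45 measured. Cofactors and the receptors that clear the complexes were read from it too, with 11 measured. Among these 56 genes, 7 were higher in AGR cells (12.5%), 9 were lower (16.1%) and 40 did not pass, against 12.6% higher and 11.6% lower among all genes, with a median log2 FC of -0.04. In the plasminogen activator system, urokinase (Plau), the target of Serpinb2, rose with it. Plau measured 7.40, 7.25 and 7.39 in NME replicates and 8.74, 9.48 and 9.14 in AGR replicates, with no overlap and the highest value again in AGR replicate 2 (log2 FC 1.77, SE 0.17, 3.41-fold, adjusted p = 5.51e-04 from limma). The tissue-type activator Plat fell by 0.21 on the log2 scale (adjusted p = 0.0486 from limma). The urokinase receptor gene Plaur did not pass (12.70 and 12.58, adjusted p = 0.469 from limma), and plasminogen (Plg) was dim in both lines and did not pass.

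In the protein C system, the anticoagulant protease protein C (Proc) fell from 9.79 ± 0.04 to 7.96 ± 0.03 (SD, n = 3 each), a log2 FC of -1.83 or 3.56-fold (adjusted p = 1.83e-06 from limma). Its receptor gene Procr rose from 7.37 to 8.46, or 2.12-fold (adjusted p = 1.75e-04 from limma). Members of the pair therefore moved in opposite directions, while the protein C inhibitor gene Serpina5 was dim and did not pass.

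Of the other proteases, Prss23 rose 2.83-fold (adjusted p = 2.64e-05), and the lysosomal cathepsin L gene Ctsl rose from 12.66 to 13.49. Tmprss2 fell 2.26-fold and the cathepsin H gene Ctsh 2.22-fold (adjusted p = 6.80e-04 and 2.44e-04 from limma). The neutrophil elastase gene Elane, the target of α1-antitrypsin, did not pass (log2 FC -0.10, adjusted p = 0.345 from limma). Lrp1, the receptor that takes up many serpin-protease complexes, fell from 10.86 to 9.63, or 2.34-fold (adjusted p = 1.17e-04 from limma). Its chaperone gene Lrpap1 fell by 0.36 and the related receptor gene Vldlr by 0.34, while Lrp8 of the same family rose by 0.71 on the log2 scale.

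**Figure D5:**
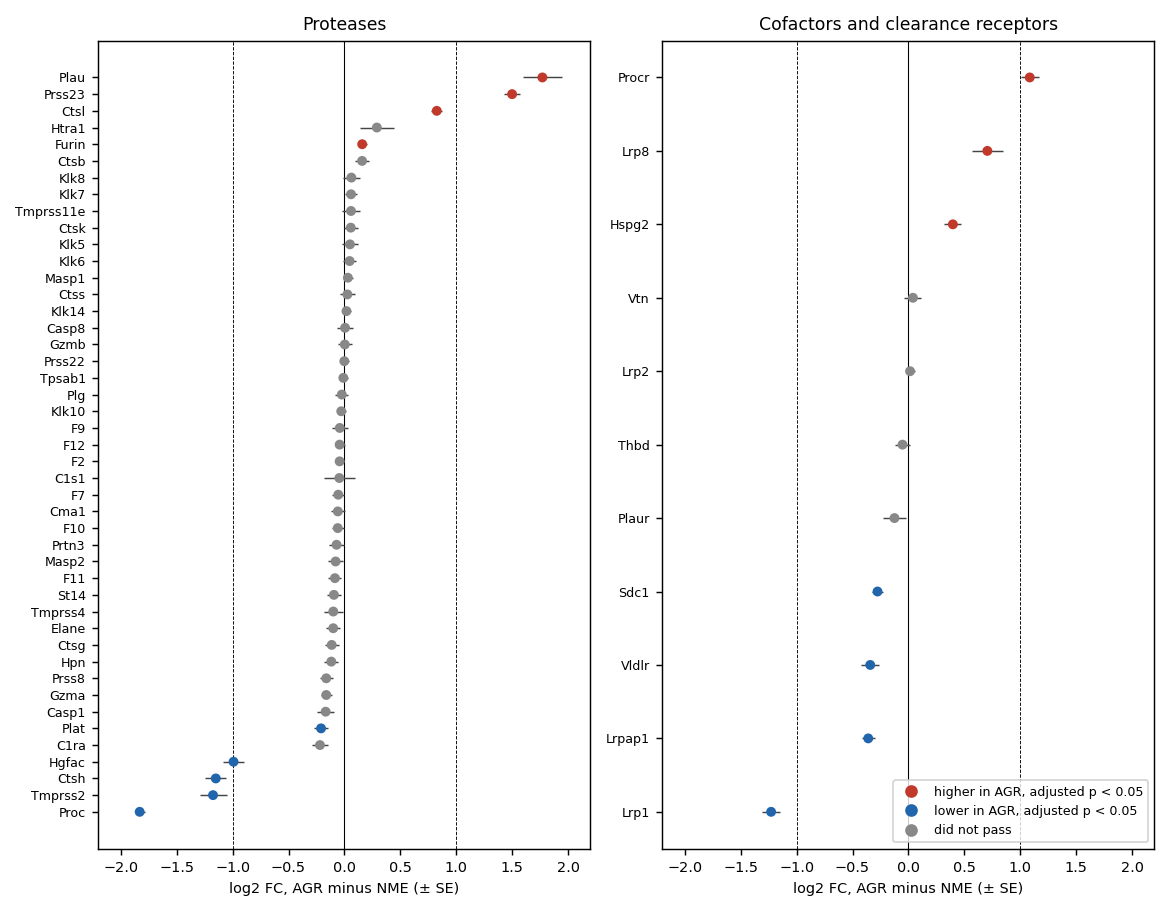
Log2 FC (AGR minus NME) of 45 proteases that serpins inhibit or that act beside them and of 11 cofactors and clearance receptors, with points for limma estimates, bars for the standard error and dashed lines at a FC of 2. Plau stands highest at 1.77 and Proc lowest at -1.83, and most proteases lie near 0.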

How the data were processed

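Per the labels, total RNA of 3 NME and 3 AGR samples was put on Affymetrix Mouse Gene ST arrays, and titles gave the line of each sample. The deposited table holds linear intensities already processed by the authors. MAS5 is the tool in the submitters' processing notes, with no version given. It relies on mismatch probes, which this array type lacks, and how the values were normalized is therefore unknown. For 8 serpins, none of them called, 3 or more arrays held exactly the same value. Log2 was taken with no offset and no further normalization. Of 35557 probe sets, 21789 carried 1 symbol, 1621 several and 12147 none. For genes with several sets the brightest was used. No depth comes with arrays, and their number limits the precision. Nothing states that replicates came from separate cultures, so the p-values may reflect technical spread between arrays alone.

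AGR and NME were compared with lmFit and eBayes of limma 3.58.1 in R 4.3.3 (two-sided, Benjamini-Hochberg adjustment over 19938 genes). The steps were tested on simulated data. Members, gene lists and tests were chosen with earlier results of these data known. Named genes were all serpins that passed, serpins above the median of all probe sets, several well-known serpins, and targets and receptors with a FC above 2. Markers of liver, epithelium and immune cells were named too. Some targets and receptors with a smaller FC were also named with values known, among them Ctsl, Lrp8, Lrpap1, Vldlr, Furin, Elane, Gzmb and Plg. Others that passed, namely Hgfac and Sdc1 (lower) and Hspg2 (higher), were not named in the results. RefSeq (GRCm38.p6) lists 69 Serpin symbols, of which 21 had no probe set of their own and were not analysed here, except jointly through 5 probe sets with several Serpina1 or Serpinb9 symbols. Its promoter table held 41 of the 48 members, and the letters GTTAAT and TGANTCA and the shared runs were chosen after values and promoters were seen. Gene order came from the RefSeq table. Windows were aligned with Biopython 1.88. Protein sequences were not used here. Alternatives were quantile normalization, median centring, leaving out genes under the 25th percentile or under the median, an offset of 16, averaging the probe sets of each gene, trend and robust settings of eBayes, the methods' t-test, the replicate number as a block, and leaving out each array in turn.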

Additional observations from a re-analysis of the deposited data

How the results depend on the processing

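The 11 called serpins kept their direction under every alternative that tested them, with log2 FC from -5.60 to -4.97 for Serpina1c and from 2.80 to 2.89 for Serpinb9b, and 9 of them, all but Serpinb9 and Serpinb9c, also kept their side of the threshold. The uncalled Serpinc1, Serpine3 and Serpinf1 crossed 0 under some. With genes under the median of all probe sets left out, 9 serpins were tested, and 4 were higher and 2 lower. With a FC above 2 in addition, 1 was higher and 1 lower. Of all genes kept by that filter, 2548 were higher and 2236 lower. Leaving out each array in turn gave 4 to 8 serpins higher, 5 to 6 lower, and 3 to 5 higher and 2 lower with a FC above 2. All genes higher ranged from 1755 to 2783 and lower from 1582 to 2573, and targets and receptors higher from 5 to 7 and lower from 7 to 11. Same-numbered arrays correlated at -0.13, 0.33 and 0.26 in their deviations, and arrays of different numbers at -0.47 to 0.36. With so few arrays these values do not settle whether the numbers pair the arrays. With the replicate block 7 serpins were higher and 5 lower, 4 and 2 with a FC above 2, and 2728 and 2312 of all genes. The methods' t-test had 6 serpins higher and 6 lower at an unadjusted p under 0.05 (2952 and 2893 of all genes), and 4 and 5 after Benjamini-Hochberg adjustment (1687 and 1588 of all genes), 3 and 2 with a FC above 2, and Serpinb9 (0.0865) and Serpinb9c (0.0939) were lost. Serpinb8 passed with quantile normalization, centring, both filters, trend and robust settings and the replicate block (adjusted p from 0.00836 to 0.0445). Dim signals, absent detection calls and 3 arrays per line limit the calls for most serpins, and the causes of these changes were not tested.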
